A study of Homo sapiens with 4 samples.

Results

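The nuclear-encoded subunits of the respiratory chain were examined in HEK293T cells (a line from human embryonic kidney) that lacked PBRM1 and received it back from a plasmid. Members were the protein-coding genes whose symbols begin with NDUFA, NDUFB, NDUFC, NDUFS, NDUFV, UQCR, COX4, COX5, COX6, COX7, COX8 or ATP5, without the NDUFAF assembly factors. Of 58735 genes in the count table, 86 matched these names and 79 had at least 10 reads over the 4 libraries. By symbol, 37 belong to complex I, 9 to complex III, 15 to complex IV and 18 to complex V. NDUFA4 and NDUFA4L2 were placed in complex IV despite their prefix. The 77 members with at least 1 CPM (reads relative to the scaled library size) in at least 1 library were compared, out of 16262 such genes. COX6B2 reached that level in the C1233W library only.

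Each library came from PBRM1 CRISPR-knockout cells grown in DMEM with serum and transfected for 48 h with a GFP-PBRM1 plasmid, which carried either the WT sequence or the mutant P1048R, T1202K or C1233W. The series title speaks of mutants of the BAH domain of PBRM1, which belongs to PBAF, a remodeller of chromatin. There was 1 library per construct, so no difference below has a replicate check and none was tested. The sources used here do not say whether the knockout cells were 1 clone, and cells without a plasmid were not analysed here. RNA came from whole cultures, so fewer cells with high levels and less RNA per cell cannot be told apart.

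The respiratory chain sits in the inner mitochondrial membrane. Complexes I, III and IV pass electrons to oxygen and pump protons, and complex V, the ATP synthase, lets the protons flow back to make ATP. Most subunits are encoded in the nucleus and imported, whereas a small hydrophobic core is encoded in mitochondrial DNA and made on mitochondrial ribosomes. The nuclear genes are known targets of the transcription factors NRF1 and GABP (an ETS factor), among others.

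The WT library held 10246250 reads, P1048R 11205322, T1202K 10993748 and C1233W 10348552. PBRM1 reads, from the plasmid and the locus together, stood at 22768, 8805, 15262 and 60509 CPM in that order; the plasmid's level therefore differs between constructs along with the mutation, and its part in the differences below was not tested. All 10 marker genes chosen for the line were at 1 CPM or more in every library, and their summed level was 1574 CPM in WT, 1104 in P1048R, 1330 in T1202K and 1359 in C1233W, highest in WT like the subunit sum; its part in the results was not tested. Of 12 markers of other cells, COL1A1, LUM and ACTN2 were at 1 CPM or more in every library and CD3E had 0 reads, and their summed level was 39.5 to 52.1 CPM. CPM was computed on library sizes scaled by trimmed mean of M values (TMM), and log2 ratios were taken after adding 0.5 to each count. The 95% intervals cover counting error only.

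Subunit transcripts were most abundant in the WT library. The 79 members summed to 8775 CPM in WT, 6587 in P1048R, 7284 in T1202K and 6949 in C1233W. Over the 77 compared, the sum in P1048R was 0.751 of that in WT (95% counting interval 0.743 to 0.758). The ratio was 0.830 (0.822 to 0.838) in T1202K and 0.792 (0.784 to 0.800) in C1233W. The same ratio over all genes compared was 0.856, 0.886 and 0.913 on this scale. These genes hold 99.7% to 99.8% of the reads in each library. Their ratio therefore follows from the TMM factors and is not a measured fall. As a share of all reads, the subunit genes took 0.800% in WT, 0.702% in P1048R, 0.750% in T1202K and 0.694% in C1233W. On the TMM scale WT was the highest of the 4 libraries for 62 of 77 members, against 33.4% of all genes compared. P1048R was the lowest for 39 members (27.1% of all genes) and C1233W for 24 (25.1%). T1202K was the lowest for 11 (16.9%), and WT for 3 (31.0%). This order depended on the scaling, in a check added after the data were seen. On total reads WT was the highest for 31 members (18.8% of all genes) and T1202K for 33 (23.6%). C1233W was then the lowest for 39 (23.7%) and P1048R for 21 (17.8%).

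The median member differed from the median of all genes by −0.29 log2 units in P1048R against WT, by −0.16 in T1202K and by −0.28 in C1233W. The 3 comparisons share the WT library, so they are not independent of each other. Ratios lay below 0 for 68 of 77 members in P1048R (53.1% of all genes), 65 in T1202K (50.8%) and 71 in C1233W (50.9%). The differences were small for single genes. In each mutant, 0 of 77 members were at least 2-fold higher or lower than WT with an interval excluding 0. Among all genes, 4.48% were 2-fold higher and 3.02% lower in P1048R. The shares were 2.95% and 2.21% in T1202K, and 4.19% and 1.21% in C1233W. Member ratios spanned −0.84 to 0.75 in P1048R, −0.94 to 0.69 in T1202K and −0.75 to 1.57 in C1233W. The upper ends in P1048R and C1233W are COX6B2, with 3 reads in WT, 7 in P1048R and 11 in C1233W. That gene was compared only because of its level in C1233W, which favours a high ratio there.

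A smaller size rule, a log2 ratio of at least 0.32 in size with a counting interval excluding 0, placed 40 of 77 members lower in P1048R (51.9%, against 18.8% of all genes) and 1 higher (18.2% of all genes). In T1202K, 24 were lower (31.2%, against 13.0%) and 3 higher (15.8% of all genes). In C1233W, 35 were lower (45.5%, against 14.8%) and 0 higher (15.1% of all genes). Counting intervals are narrow for abundant genes, and most members are abundant. Among the 10296 genes with a mean of at least 10 CPM, the lower shares were 22.1%, 14.6% and 19.9%, beside 39, 23 and 34 of the 73 members in that range. That restriction was chosen after the data were seen.

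The size of these counts depended on scaling. Scaling by total reads in place of TMM adds 0.22 to every log2 ratio of P1048R to WT, 0.18 for T1202K and 0.13 for C1233W. On that scale the median of all genes lay at 0.19, 0.17 and 0.13, and the member median at −0.11, 0.00 and −0.16. The T1202K member median therefore lay below WT only relative to other genes on that scale. Ratios lay below 0 for 51, 36 and 61 of 77 members there. Single-gene ratios smaller than these shifts changed sign, such as COX4I1 and ATP5F1B in T1202K, which moved to 0.10 and 0.04. Counts by the smaller rule became 16 lower and 4 higher in P1048R, 11 and 8 in T1202K, and 14 and 1 in C1233W. The matching lower shares of all genes were 8%, 5.44% and 7.71%, and the higher shares 31.3%, 27.5% and 22.4%. Relative to the median of all genes, the member medians kept their sign under each of the 9 alternatives run.

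**Figure D1:**
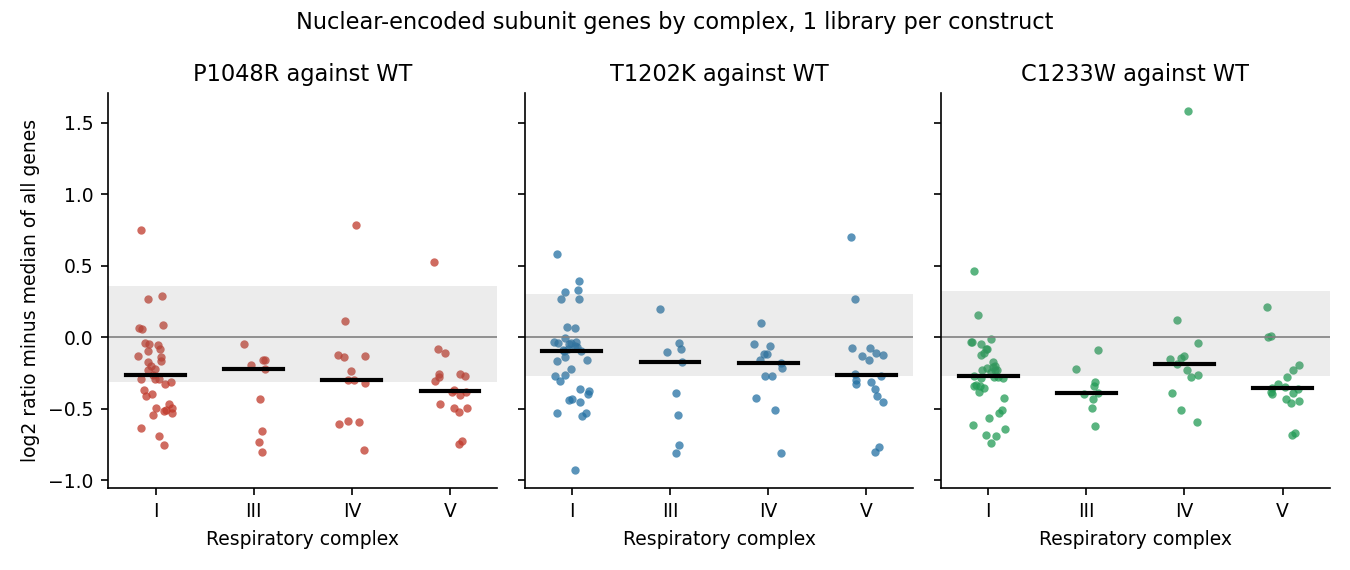
Each point is 1 subunit gene, placed by complex (x axis) and by its log2 ratio to WT minus the median of all genes compared (y axis), with 1 panel per mutant; black bars are medians and the grey band is the interquartile range of all genes. The medians of complexes I, III, IV and V lie below 0 in the 3 panels, between −0.09 and −0.39, with T1202K's complex I closest to 0; the high point in complex IV for C1233W is COX6B2, at 11 reads against 3 in WT.

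Complex I, the NADH dehydrogenase, had medians of −0.26, −0.09 and −0.27 in P1048R, T1202K and C1233W, relative to all genes. By the smaller size rule 18, 10 and 14 of its 37 members were lower, against 18.8%, 13.0% and 14.8% of all genes. Its 7 nuclear core genes, which carry the flavin, the iron-sulphur clusters and the quinone site, had medians closer to WT than its 30 supernumerary genes, but with a trend on GC and length removed a gap was left mainly in P1048R. The core medians were −0.05, −0.03 and −0.23, and the supernumerary medians −0.29, −0.15 and −0.28. The mean of the core in T1202K was on the other side of 0, at 0.03. The median GC content was 53.1% for the core and 48.9% for the supernumerary genes. With the trend removed, the log2 medians were −0.09, −0.10 and −0.22 for the core and −0.21, −0.10 and −0.23 for the supernumerary genes.

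NDUFS3, an iron-sulphur protein subunit of the core, departed from the family. It stood at 49.9 CPM in WT, 59.2 in P1048R, 65.2 in T1202K and 42.4 in C1233W. Its log2 ratio to WT was 0.25 (0.08 to 0.42) in P1048R, 0.39 (0.22 to 0.56) in T1202K and −0.23 (−0.43 to −0.04) in C1233W. C1233W was thus the lowest library and T1202K the highest, with a log2 ratio of −0.62 (−0.80 to −0.45) between them. NDUFS1, the largest core subunit, stood at 169 CPM in WT, 159 in P1048R, 161 in T1202K and 142 in C1233W. NDUFV1, which binds NADH and flavin, stood at 91.1, 78.4, 90.3 and 74.4 CPM in the order WT, P1048R, T1202K, C1233W. NDUFS7 and NDUFS8, which carry iron-sulphur clusters near the quinone site, stayed within the smaller size rule of WT, with log2 ratios of 0.04, 0.26 and −0.21 for NDUFS7 and −0.17, −0.04 and −0.04 for NDUFS8. NDUFV2 could not be compared closely, with 13 to 17 reads in each library.

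Supernumerary members of complex I held some of the lowest ratios. NDUFB1 stood at 109 CPM in WT, 65.6 in P1048R, 56.8 in T1202K and 64.7 in C1233W. The mutant libraries lay close together and WT apart, with log2 ratios of −0.73 (−0.87 to −0.59), −0.94 (−1.08 to −0.79) and −0.75 (−0.89 to −0.61). NDUFS6, a zinc-binding subunit, stood at 139 CPM in WT and 80.1, 101 and 85.7 in the mutants, and its log2 ratio in P1048R was −0.80 (−0.92 to −0.67). NDUFB2 was lowest in C1233W, at 51.6 CPM against 83.5 in WT; 50.2% of its exon length is overlapped by other genes. NDUFS5 and NDUFB10 had the highest levels per kilobase of complex I. NDUFS5 stood at 219, 137, 151 and 142 CPM, with WT apart, and NDUFB10 at 228, 190, 221 and 215. NDUFA7 had the highest ratios of complex I (0.71, 0.57 and 0.45), yet only 17 to 36 reads, intervals that include 0 in each mutant, and 78.7% of its exon length shared with other genes, among them RPS28.

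**Figure D2:**
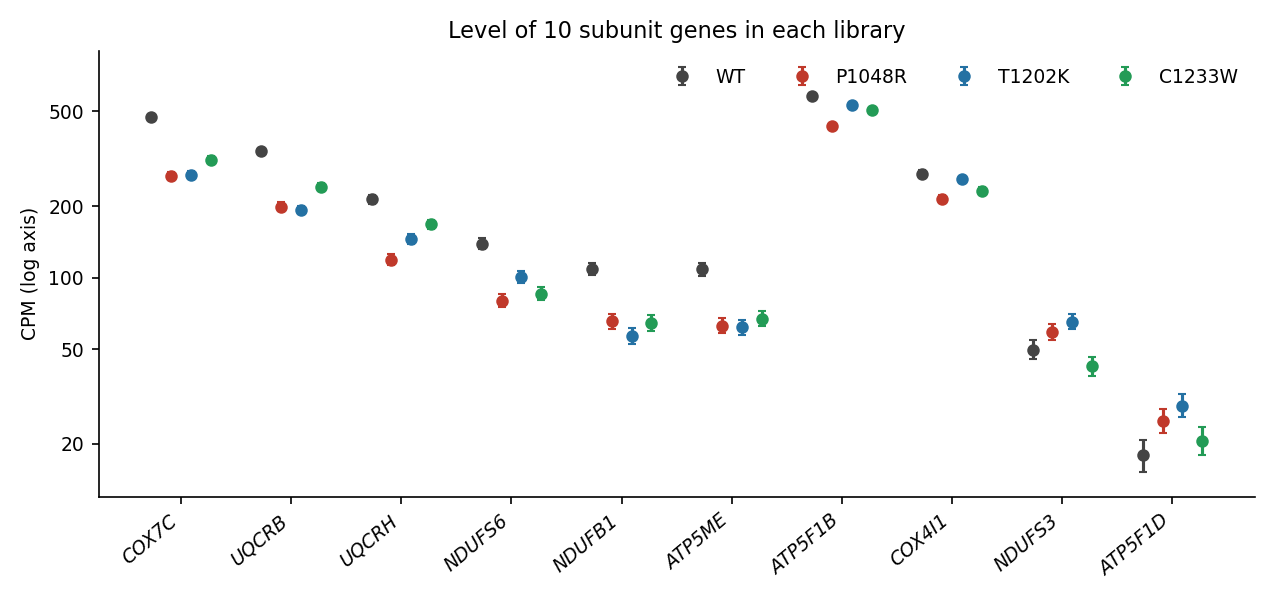
CPM (log axis) of 10 subunit genes in the WT, P1048R, T1202K and C1233W libraries, with 95% Poisson intervals that cover counting error only. For the 6 genes on the left WT is the highest library; NDUFS3 and ATP5F1D, on the right, are higher in P1048R and T1202K than in WT.

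Complex III, the cytochrome bc1 complex, had medians of −0.22, −0.18 and −0.39 relative to all genes. By the smaller rule 4, 4 and 6 of its 9 members were lower, against 18.8%, 13.0% and 14.8% of all genes. Among them in each mutant is UQCRHL, a near copy of UQCRH, at 47 to 66 reads per library. With the trend on GC and length removed the complex III medians were −0.20, −0.07 and −0.24. Its small subunits UQCRB and UQCRH had the lowest ratios of the complex in P1048R. UQCRB stood at 340 CPM in WT, 199 in P1048R, 193 in T1202K and 240 in C1233W. UQCRH, the hinge protein that binds cytochrome c1, stood at 213, 119, 145 and 167 CPM. Its ratios to WT were −0.84 (−0.94 to −0.75), −0.56 (−0.65 to −0.46) and −0.35 (−0.44 to −0.26), and the intervals of the 3 mutants do not overlap. UQCRFS1, the Rieske iron-sulphur protein and a catalytic subunit, stood at 73.7 CPM in WT and 62.5, 68.3 and 55.6 in the mutants, and was lower by the smaller rule in C1233W alone, at −0.41 (−0.57 to −0.24).

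Complex IV, cytochrome c oxidase, had medians of −0.30, −0.18 and −0.19. By the smaller rule 7, 3 and 3 of 13 members compared were lower, against 18.8%, 13.0% and 14.8% of all genes. In T1202K and C1233W the count thus rests on 3 genes. With the trend on GC and length removed the complex IV medians were −0.15, −0.03 and −0.05. COX7C, a small structural subunit with the highest mean level per kilobase of the family (498 CPM per kb), stood at 475 CPM in WT, 267 in P1048R, 270 in T1202K and 314 in C1233W. Its log2 ratios were −0.83 (−0.90 to −0.76), −0.82 (−0.88 to −0.75) and −0.60 (−0.67 to −0.53). COX4I1, the largest nuclear subunit, stood at 272, 215, 259 and 231 CPM. The COX5A and COX5B genes varied little, with ratios of −0.18, −0.17 and −0.20 for COX5A and −0.16, −0.06 and −0.16 for COX5B. COX8A showed the reverse order with no library apart, at 32.4 CPM in WT and 34.2, 34.5 and 35.0 in the mutants.

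Tissue-restricted isoforms of complex IV were at or near 0 reads. The heart and muscle isoform genes COX6A2 and COX7A1 had 0 and 3 reads over the 4 libraries, and the lung isoform COX4I2 had 0 reads, beside 834 to 945 reads per library for COX6A1. COX7B2 had 0 reads. COX6B2, a testis isoform, had 3 reads in WT, 7 in P1048R, 3 in T1202K and 11 in C1233W, which gives a log2 ratio of 1.85 (0.09 to 4.49) for C1233W to T1202K. This was the single member past 2-fold in any pair of libraries (in that comparison 3.05% of all genes were higher and 0.486% lower) and rests on 14 reads. For T1202K against P1048R the 2-fold shares of all genes were 0.572% higher and 0.664% lower, and for C1233W against P1048R 3.73% and 0.806%, with 0 members in each. NDUFA4L2, a hypoxia-responsive relative of NDUFA4, had 2, 9, 6 and 10 reads, and COX8C had 0, 4, 4 and 2; both stayed below 1 CPM. NDUFA4 had 1002 to 1113 reads. At the edge of the 10-read rule, COX8C (10 reads), COX6B2 (24) and NDUFA4L2 (27) were just inside, and COX7A1 (3), NDUFC2-KCTD14 (1) and ATP5MF-PTCD1 (1) just outside. ATP5MGL also had 0 reads.

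**Figure D3:**
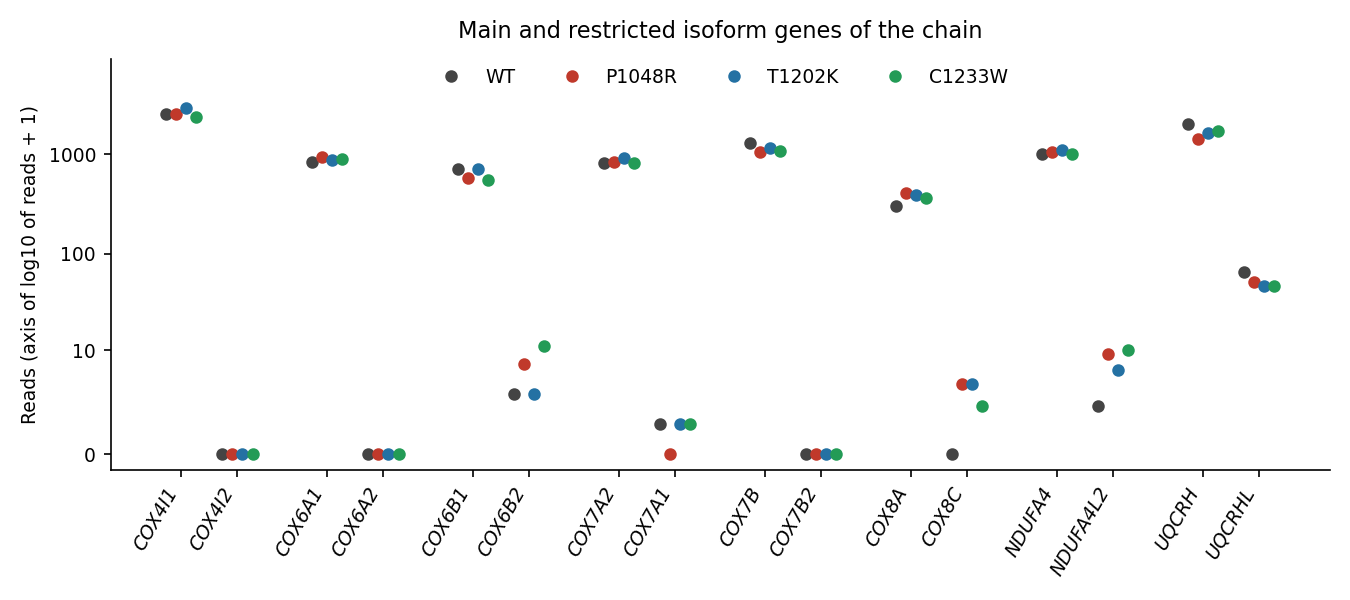
Reads per library (y axis, log10 of reads + 1) for the main gene of each subunit and its restricted relative. Main genes lie between 303 and 2930 reads, the UQCRHL copy at 47 to 66, and the other restricted genes at 0 to 11, so these ratios are not compared.

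Complex V, the ATP synthase, had the lowest medians of the 4 complexes in P1048R and T1202K, −0.38 and −0.26, and −0.36 in C1233W. Its members lower by the smaller rule numbered 11, 7 and 12 of 18, against 18.8%, 13.0% and 14.8% of all genes. With the trend on GC and length removed the medians were −0.24, −0.11 and −0.19. ATP5F1B, the beta subunit that holds the catalytic sites, stood at 583 CPM in WT, 434 in P1048R, 532 in T1202K and 507 in C1233W, and ATP5F1A at 400, 325, 368 and 339. The membrane subunit ATP5ME was lower in each mutant, at 109 CPM in WT and 62.8, 61.7 and 67.3 in the mutants, with ratios of −0.79, −0.81 and −0.69. ATP5MD, another small membrane subunit, stood at 152, 89.2, 88.5 and 94.7 CPM. The 3 c-ring genes, which encode the same mature peptide, differed from each other. ATP5MC1 was lower in P1048R and C1233W, at 40.5 and 39.7 against 53.9 CPM. ATP5MC3 was lower in each mutant, at 242 CPM in WT and 164, 187 and 175. ATP5MC2, the other abundant copy, stood at 119, 109, 143 and 119 CPM and was the highest in T1202K. ATP5IF1, the inhibitor of the synthase, stood at 168, 137, 134 and 131 CPM. ATP5F1D, the delta subunit, was again the exception: 17.9 CPM in WT, 25 in P1048R, 29 in T1202K and 20.6 in C1233W, with ratios of 0.49 (0.21 to 0.77), 0.69 (0.42 to 0.97) and 0.20 (−0.09 to 0.51). It has the highest GC content of the family, 69.1%.

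Between mutants, the member medians relative to all genes were 0.11 for T1202K against P1048R, 0.06 for C1233W against P1048R and −0.07 for C1233W against T1202K. By the smaller rule, 9 members were higher in T1202K than in P1048R (5.89% of all genes) and 0 lower (4.73%), and among the 9 were NDUFS6, ATP5MC1, ATP5MC2 and COX6B1. C1233W against P1048R had 3 members higher (12.7% of all genes), UQCRH, COX6C and ATP5PO, and 1 lower (12.2%), NDUFS3. C1233W against T1202K had COX6B2 higher (10.1% of all genes) and 7 lower (11.8%), among them NDUFS3, ATP5F1D, NDUFV3, NDUFB7 and UQCRC1.

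**Figure D4:**
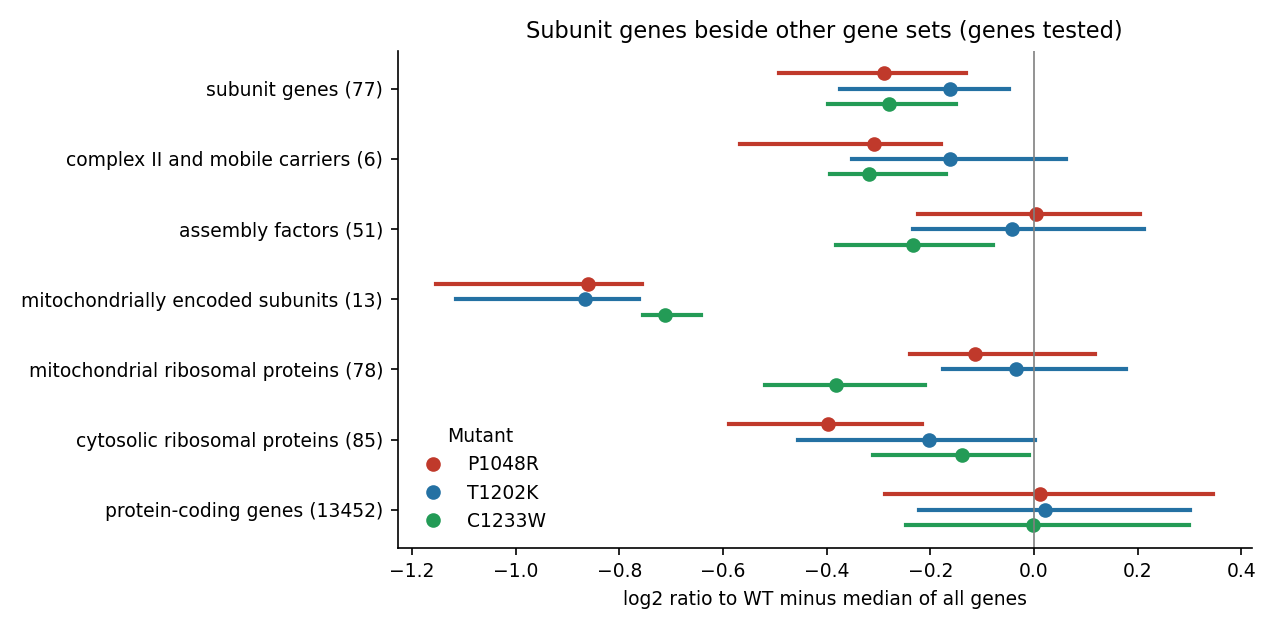
Median (point) and interquartile range (bar) of the log2 ratio to WT minus the median of all genes, for subunit genes and other sets, with the number of genes compared in brackets; colours mark the mutants. Subunit genes lie left of 0 in the 3 mutants, and the mitochondrially encoded subunits lie furthest left, at −0.86, −0.87 and −0.71.

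Other parts of the system gave a wider view. Complex II and the carriers and cytochromes (SDHA, SDHB, SDHC, SDHD, CYCS and CYC1) had medians of −0.31, −0.16 and −0.32 relative to all genes, close to those of the subunit genes. The 13 mitochondrially encoded subunits were lower still, with medians of −0.86, −0.87 and −0.71. By the smaller rule 13, 12 and 12 of them were lower, against 18.8%, 13.0% and 14.8% of all genes. Their summed level was 84668 CPM in WT and 44203, 45650 and 53636 in the mutants, so the WT library stood apart here too. Among assembly factors (51 of 52 listed were compared), the medians were 0.00 and −0.04 in P1048R and T1202K and −0.23 in C1233W, with 10, 6 and 19 lower by that rule, where the shares of all genes were 18.8%, 13.0% and 14.8%. The first 2 counts lie near those shares. By the same rule 3, 4 and 2 assembly factors were higher, against 18.2%, 15.8% and 15.1% of all genes. PET100, a complex IV assembly factor, had the lowest ratio of the set in P1048R and T1202K. It stood at 23.3 CPM in WT and 9.55, 10.9 and 12.5 in the mutants. NDUFAF6, with the highest ratio in P1048R and C1233W, stood at 15.2 CPM in WT and 28.9, 25.7 and 23.3 in the mutants. Mitochondrial ribosomal proteins were split between the mutants much as the assembly factors were, with medians of −0.11, −0.04 and −0.38. Cytosolic ribosomal proteins, also short and abundant, were at −0.40, −0.20 and −0.14. The 14 regulators on the list, including NRF1, GABPA and the coactivator PPARGC1A, had medians of −0.06, −0.05 and −0.23; NRF1 stood at 20.5, 12.8, 13.5 and 14.2 CPM and PPARGC1A had 183, 417, 331 and 374 reads.

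GC content and transcript length moved with the ratios. Subunit transcripts were short, with a median of 750 bases and a median GC of 48.9%. Members of GC under 45% (22) had a median log2 ratio of −0.40 in P1048R, −0.29 in T1202K and −0.38 in C1233W. Those of 55% or more (19) had −0.18, 0.05 and −0.10. Other protein-coding genes were also higher in the GC-rich band, at −0.06, −0.11 and −0.08 under 45%, and 0.07, 0.20 and 0.10 at 55% or more. Spearman's rho between GC and ratio over the 77 members was 0.39, 0.54 and 0.43, as a description over genes of the same libraries. With a trend on GC and length over all genes removed, the members' medians relative to all genes were −0.18, −0.09 and −0.17, and the counts by the smaller rule were 25 lower and 3 higher in P1048R, 8 and 3 in T1202K, and 20 and 0 in C1233W. The share of all genes lower under that setting was 16.8%, 10.9% and 15.2%, and in T1202K the 8 of 77 members lie near that share. The share higher was 18.6%, 14% and 13.5%.

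**Figure D5:**
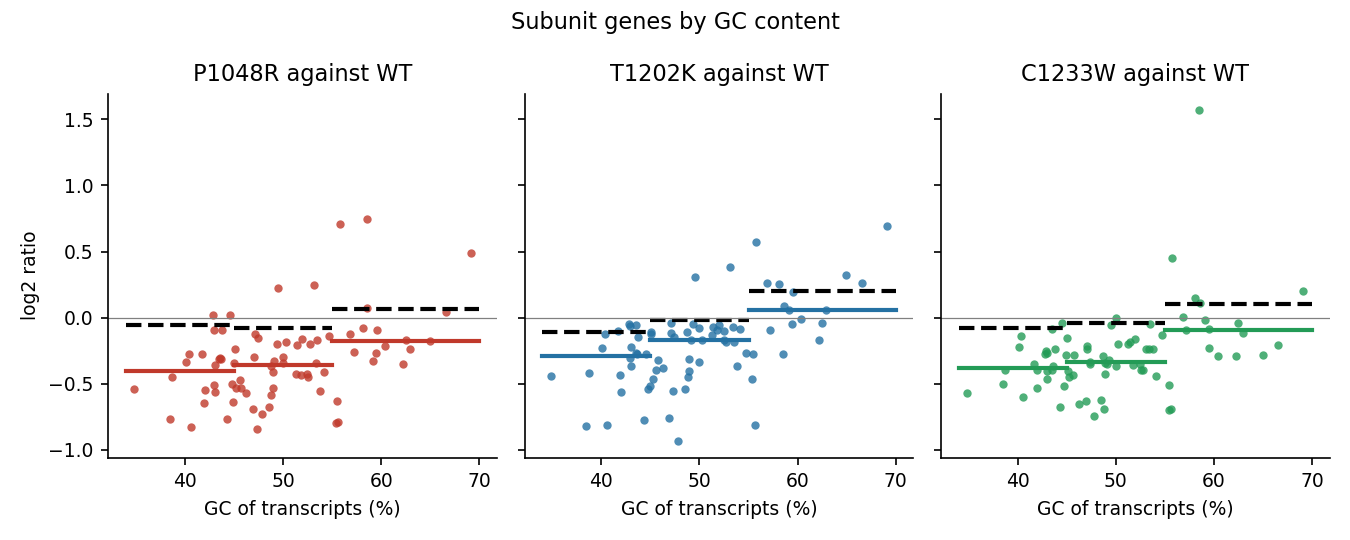
Log2 ratio to WT (y axis) against transcript GC in percent (x axis) for each subunit gene, 1 panel per mutant; coloured lines are subunit medians and dashed black lines medians of other protein-coding genes in 3 GC bands. In each panel both are highest in the band of 55% or more, and the subunit lines lie below the dashed lines in every band.

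Promoter sequences were inspected for the factors known to act on the family. A RefSeq window (GRCh38.p14) from 250 bases before to 50 after the start was found for 67 of the 79 members. On both strands, the NRF1 letters, GCGCA, any base and GCGC, were in 15 of 81 member windows (18.5%, against 5.79% of all 35093 windows), the ETS letters CCGGAAG in 20 (24.7%, against 10.3%), and the YY1 letters AAGATGGC in 12 (14.8%, against 2.89%). ETS and YY1 matches overlapped in 0 windows. The 11 members with a YY1 match had median ratios of −0.09, −0.05 and −0.22, and the 54 without −0.33, −0.17 and −0.29. For NRF1 they were −0.25, −0.09 and −0.24 with (14 members) and −0.31, −0.17 and −0.29 without (51). For ETS they were −0.30, −0.17 and −0.29 with (19) and −0.30, −0.13 and −0.28 without (46). GC was not taken into account in these splits, and the 35093 windows were not limited to genes compared here. The matches are of letters only, and nothing was measured at them. The windows of 3 members are shown. ATP5ME (chr4:674227-674526, minus strand) and COX7C (chr5:86617691-86617990, plus strand) were lower in each mutant, and NDUFS3 (chr11:47578824-47579123, plus strand) was not. Capitals mark the NRF1 and ETS letters on either strand; COX7C has none in its window.
ATP5ME: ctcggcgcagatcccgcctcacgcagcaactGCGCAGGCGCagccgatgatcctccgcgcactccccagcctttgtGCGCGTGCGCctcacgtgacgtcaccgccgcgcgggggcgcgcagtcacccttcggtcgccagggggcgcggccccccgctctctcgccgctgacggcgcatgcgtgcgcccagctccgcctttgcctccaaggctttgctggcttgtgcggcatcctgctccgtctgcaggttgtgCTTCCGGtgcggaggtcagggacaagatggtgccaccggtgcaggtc
COX7C: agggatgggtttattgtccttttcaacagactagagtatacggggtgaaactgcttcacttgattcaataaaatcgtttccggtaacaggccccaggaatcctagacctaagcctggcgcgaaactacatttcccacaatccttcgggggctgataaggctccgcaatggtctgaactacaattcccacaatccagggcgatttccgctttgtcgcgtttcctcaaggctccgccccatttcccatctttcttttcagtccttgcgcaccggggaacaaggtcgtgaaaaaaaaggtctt
NDUFS3: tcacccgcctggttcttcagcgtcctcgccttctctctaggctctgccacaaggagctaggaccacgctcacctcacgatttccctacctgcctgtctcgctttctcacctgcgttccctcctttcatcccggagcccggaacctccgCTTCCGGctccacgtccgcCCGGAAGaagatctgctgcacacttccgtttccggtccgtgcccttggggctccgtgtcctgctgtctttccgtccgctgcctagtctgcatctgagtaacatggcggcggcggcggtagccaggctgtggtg

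Counts of some members are uncertain because of related or overlapping genes. Pseudogenes named after members held 53, 77, 105 and 57 reads in WT, P1048R, T1202K and C1233W, 0.0646% to 0.127% of the members' own reads. UQCRHL, a near copy of UQCRH, had 66, 52, 47 and 47 reads, which may include reads of UQCRH. Exons of NDUFB8, NDUFS7, ATP5PO and NDUFA7 are overlapped by other genes over more than 50% of their length.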

How the data were processed

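The authors deposited raw counts of reads per gene for each library, not normalized. The submitters' processing notes list Trim Galore, HISAT2, featureCounts and hg38 and give no versions. No annotation release or strand setting is given in the sources used here. Per the labels, RNA was extracted with TRIzol, cleaned up with RNeasy columns and prepared with Qiagen's stranded chemistry. Library totals were scaled by TMM in edgeR 4.0.16 (R 4.3.3), with factors of 0.912, 1.07, 1.03 and 0.999 for WT, P1048R, T1202K and C1233W. A floor of 3 reads was 0.251 to 0.321 CPM. Genes with at least 1 CPM in a library were compared. With 1 library per construct, edgeR's quasi-likelihood test could not be fitted, so there are no p-values; a gene was counted by a size rule when its log2 ratio reached 1 (2-fold) or 0.32 (the smaller rule) in size and its 95% Clopper-Pearson interval excluded 0. Levels have exact Poisson intervals. Length is the median over a gene's GENCODE 29 basic protein-coding transcripts, or over its other transcripts where it has none. GC is taken over all bases of the same transcripts together. Promoter windows are from RefSeq. Genes were named by rule: the 3 highest and lowest ratios per mutant, members past 2-fold, the 2 highest levels per kilobase in each complex, paralogue sets and catalytic core genes; other names were chosen after values were seen, and 1 gene the rule names is not reported here. The members and lists were chosen with earlier results of these data known. The counting was checked on simulated data. Alternatives are given in the closing section.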

Additional observations from a re-analysis of the deposited data

How the results depend on the processing

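Under the 9 alternatives the medians of the subunit genes relative to all genes ran from −0.31 to −0.18 in P1048R. They ran from −0.18 to −0.09 in T1202K and −0.29 to −0.17 in C1233W. The ends nearest 0 are those with the GC and length trend removed. In each of the 6 comparisons the medians stayed within bounds set by the median single-gene interval of the members. Those bounds describe a typical single gene, and the counting error of a median over the members was not computed. Counts by the smaller size rule (log2 0.32) in either direction moved more. On total reads they were 20 in P1048R (16 lower and 4 higher) and 15 in C1233W (14 and 1). Of all genes, 8% and 7.71% were lower on that scale, and 31.3% and 22.4% higher. On totals without PBRM1 and mitochondrially encoded genes they were 26 in P1048R (22 lower and 4 higher) and 15 in C1233W (13 and 2). Of all genes, 10.2% and 6.49% were lower there, and 26.8% and 24.3% higher. In that setting 1 member, NDUFA4L2 (2 reads in WT and 10 in C1233W), was past 2-fold in C1233W against WT. NDUFA4L2 lay below 1 CPM in every library on the main scale and has its most reads in C1233W. Its entry into this setting therefore favours a high C1233W ratio. The 2-fold share of all genes is not given for this setting. With the GC and length trend removed they were 11 in T1202K and 20 in C1233W. COX6B2 past 2-fold in C1233W against T1202K gave a count of 0 with at least 5 CPM required, 0 with reads thinned to the smallest library and 0 without tissue-restricted isoforms. The cause of the other moves was not tested. Medians relative to all genes kept their direction. Before that subtraction, total reads moved the T1202K median from −0.17 to 0.00 and that of C1233W against P1048R from 0.06 to −0.03, and some named genes with small ratios changed sign. With the GC and length trend removed, complex IV medians moved to −0.15, −0.03 and −0.05 in P1048R, T1202K and C1233W, and complex V medians to −0.11 in T1202K and −0.19 in C1233W. No paired analysis was possible because each construct has 1 library. Depth limits the members with few reads, such as NDUFV2 and NDUFA7, and variation between cultures was not measured.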
